A study of Mus musculus with 12 samples.

Results

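The kainate receptor subunit genes Grik1, Grik2, Grik3, Grik4 and Grik5 were followed in 2 brain regions, prefrontal cortex and striatum (taken whole), of mice that differed in how they drank ethanol. They were taken by symbol from the platform annotation, which ties 8 probe sets to 1 of these symbols each, out of 45037 probe sets and 18193 genes measured. Grik1, Grik2 and Grik3 had 2 probe sets each and Grik4 and Grik5 had 1. The brighter probe set of a gene, by its mean over the 12 arrays, led, and the other is given beside it.

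All animals were male Swiss mice, an outbred stock, and every group had access to ethanol. From 6 weeks of age they chose between 3 bottles with 5% ethanol, 10% ethanol and water for 10 weeks, lost the ethanol for 2 weeks, had it back for 2 weeks and then drank it with bitter quinine (0.005 g/L) for 2 weeks, before 1 more week of free choice. The labels give an age of 22 weeks at the end, which matches the 16 weeks up to the end of the quinine stage and leaves out the extra week. The 4 groups had 3 arrays each. Inflexible drinkers preferred ethanol at every stage, quinine included, with a mean blood ethanol of 113 ± 11.3 mg/dL, and light drinkers preferred water, with 48 ± 13.3 mg/dL (the kind of error is not stated). Each class was measured in prefrontal cortex and in striatum. A single concentration of pooled RNA is recorded per group, so the 3 arrays of a group may be hybridisations of 1 pool. The p-values then measure only the spread between arrays, not between mice. The protocol also mentions water-only controls and a class of heavy drinkers, which were not analysed here.

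Kainate receptors are glutamate-gated cation channels built from 4 subunits. GluK1, GluK2 and GluK3, encoded by Grik1 to Grik3, can form working channels by themselves, while GluK4 and GluK5, encoded by Grik4 and Grik5, need one of these partners and give the channel a higher affinity for agonists. The receptors act at both sides of the synapse, where they shape transmitter release and slow excitatory currents, and Neto1 and Neto2 are auxiliary proteins that slow their gating. Ethanol is known to inhibit kainate receptor currents in brain slice recordings.

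The RefSeq promoter table (GRCm38.p6) held 4 of the 5 genes, all but Grik1. The 250 bases before the annotated start are shown for the 3 subunit genes whose lead probe set had a mean above a log2 value of 4, since the comparisons turn on these. Capitals mark the GC box GGGCGG, searched on both strands with overlaps counted.
Grik2 (chr10:49788755-49789004, minus strand): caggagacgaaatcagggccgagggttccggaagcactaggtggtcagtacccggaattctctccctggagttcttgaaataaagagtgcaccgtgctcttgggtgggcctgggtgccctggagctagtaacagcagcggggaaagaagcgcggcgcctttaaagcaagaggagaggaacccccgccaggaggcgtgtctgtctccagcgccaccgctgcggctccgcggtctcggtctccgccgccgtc
Grik3 (chr4:125490446-125490695, plus strand): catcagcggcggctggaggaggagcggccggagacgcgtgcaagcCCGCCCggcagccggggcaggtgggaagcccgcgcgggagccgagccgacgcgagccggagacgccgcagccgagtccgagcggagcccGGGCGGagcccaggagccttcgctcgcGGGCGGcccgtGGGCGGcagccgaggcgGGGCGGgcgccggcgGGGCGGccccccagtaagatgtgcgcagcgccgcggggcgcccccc
Grik5 (chr7:25072370-25072619, minus strand): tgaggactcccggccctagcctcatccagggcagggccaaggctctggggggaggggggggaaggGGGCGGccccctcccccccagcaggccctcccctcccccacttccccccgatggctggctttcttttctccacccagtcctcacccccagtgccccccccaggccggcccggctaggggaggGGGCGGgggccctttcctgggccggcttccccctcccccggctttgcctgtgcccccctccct

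The GC box occurred 6 times before Grik3, 2 times before Grik5, 1 time before Grik4 and 0 times before Grik2. Of all 32851 promoter windows of this length in the table, 32.7% held at least 1. The TATA box TATAAA (12.4% of all windows) and TGACG, the core of the cAMP response element (17.8%), were found in 0 of the 4 windows. The GC content was 62.8% before Grik2, 82.0% before Grik3, 69.6% before Grik4 and 75.2% before Grik5, against a median of 52.4% over all windows. These are matches of letters, and the arrays carried no measure of what binds there.

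The arrays gave deposited log2 values with medians from 3.12 to 3.14, and from 22.4% to 25.0% of probe sets per array exceeded 4. That share was 22.4% to 23.6% on the 5 arrays with high hybridisation controls described below and 24.5% to 25.0% on the other 7. The striatal labels were checked on cell markers. All 10 measured markers of medium spiny neurons, the main striatal projection neuron, were called higher in striatum than in prefrontal cortex in both classes. Of 9 cortical excitatory neuron markers 3 were called lower in striatum in each class, and 2 were called higher in light drinkers. Over all probe sets 3.32% were called between regions in light and 0.773% in inflexible drinkers. The prefrontal groups were not matched in tissue markers. Called higher in inflexible than in light drinkers were 6 of the 10 medium spiny neuron markers, 5 of 8 myelin markers and 5 of 9 hippocampal markers. In these 3 lists 0 markers were called lower, and over all probe sets 0.826% were called. Every measured marker of these lists, called or not, had a higher mean in inflexible drinkers. All 6 choroid plexus and ependyma markers had a higher mean there as well, 1 of them called. Their mean level was 3.26 to 3.29 on the light and 4.40 to 4.69 on the inflexible prefrontal arrays. Of the same comparison's other lists, 1 of 9 cortical excitatory neuron markers and 1 of 6 thalamus and septum markers were called higher. Called lower were 2 of 9 interneuron, 1 of 7 microglia and 1 of 5 olfactory bulb markers. All marker lists, the hippocampal one included, were chosen with earlier results of these data known. Their counts are therefore a description and not an independent check. In addition, spiked hybridisation controls were high on 5 arrays (1 of each prefrontal group, 2 of inflexible striatum, 1 of light striatum) and low on 7. No label explains this division, which is called the control split below.

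Grik2, which encodes the channel-forming subunit GluK2, was the 1 subunit gene called in a comparison of groups. Its lead probe set (1457683_at) read 3.90, 4.16 and 3.99 on the light prefrontal arrays. On the inflexible prefrontal arrays it read 4.29, 4.41 and 4.45. In striatum it stood at 4.82, 4.47 and 4.60 in light drinkers and at 4.82, 4.81 and 4.97 in inflexible drinkers. The group means therefore rose in the order light prefrontal cortex (4.01 ± 0.13, SD, n = 3), inflexible prefrontal cortex (4.38 ± 0.08), light striatum (4.63 ± 0.18) and inflexible striatum (4.87 ± 0.09). Neighbours in this order lay close: the highest inflexible prefrontal array and the lowest light striatal array were 4.45 and 4.47, and the striatal groups overlapped.

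Grik3 followed another order. The lead probe set (1440177_at) read 4.75, 4.47 and 4.58 in light prefrontal cortex and 4.30, 3.83 and 4.36 in inflexible prefrontal cortex. The striatal values were 4.43, 4.34 and 3.96 in light drinkers and 4.21, 4.71 and 4.60 in inflexible drinkers. Light prefrontal cortex had the highest mean (4.60 ± 0.14) and inflexible prefrontal cortex the lowest (4.16 ± 0.29), with light striatum (4.24 ± 0.25) and inflexible striatum (4.51 ± 0.26) between them. Every pair of neighbours in this order overlapped.

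**Figure D1:**
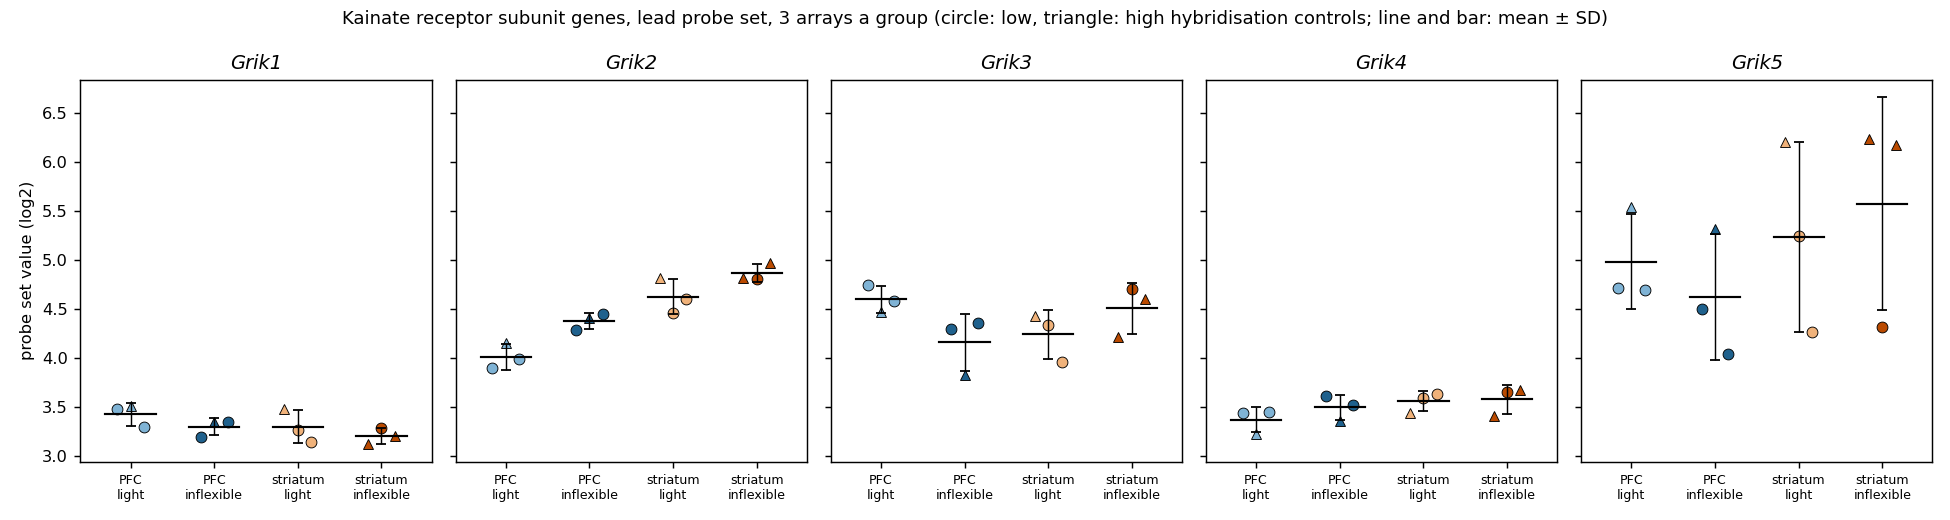
Probe set values (log2, y axis) of the lead probe set of each kainate receptor subunit gene in the 4 groups (x axis), 1 symbol per array, with circles for low and triangles for high hybridisation controls and lines with bars for mean ± SD. Grik2 climbs from 4.01 in light prefrontal cortex to 4.87 in inflexible striatum, while the triangles of Grik5 sit above its circles.

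The high-affinity subunit gene Grik5 (1418784_at) was the most variable member. It read 4.71, 5.54 and 4.70 in light prefrontal cortex, 4.50, 5.32 and 4.04 in inflexible prefrontal cortex, 6.20, 5.25 and 4.27 in light striatum and 6.23, 4.32 and 6.17 in inflexible striatum. The means ran from 4.62 ± 0.65 in inflexible prefrontal cortex through 4.99 ± 0.48 in light prefrontal cortex and 5.24 ± 0.97 in light striatum to 5.58 ± 1.09 in inflexible striatum, and all 4 groups overlapped. Its within-group SD of 0.83 was larger than that of 99.5% of the 10852 probe sets with a mean above 4, whose median SD was 0.18. Grik2 (0.13) and Grik3 (0.24) were nearer to that median.

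Grik5 moved with the control split. On the 5 arrays with high hybridisation controls it lay between 5.32 and 6.23, and on the 7 with low controls between 4.04 and 5.25, so that the ranges did not overlap. With the 4 groups in the model, limma put the high arrays 1.30 ± 0.21 above the low ones (adjusted p = 0.0023), a comparison in which 27.7% of all probe sets were called. Grik4 went the other way (-0.18 ± 0.05, adjusted p = 0.0209). Grik1 (0.09 ± 0.06, adjusted p = 0.323), Grik2 (0.16 ± 0.05, adjusted p = 0.0562) and Grik3 (-0.18 ± 0.13, adjusted p = 0.305) were not called. The striatal groups hold unequal numbers of high arrays, which touches every striatal value of Grik5 below.

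**Figure D2:**
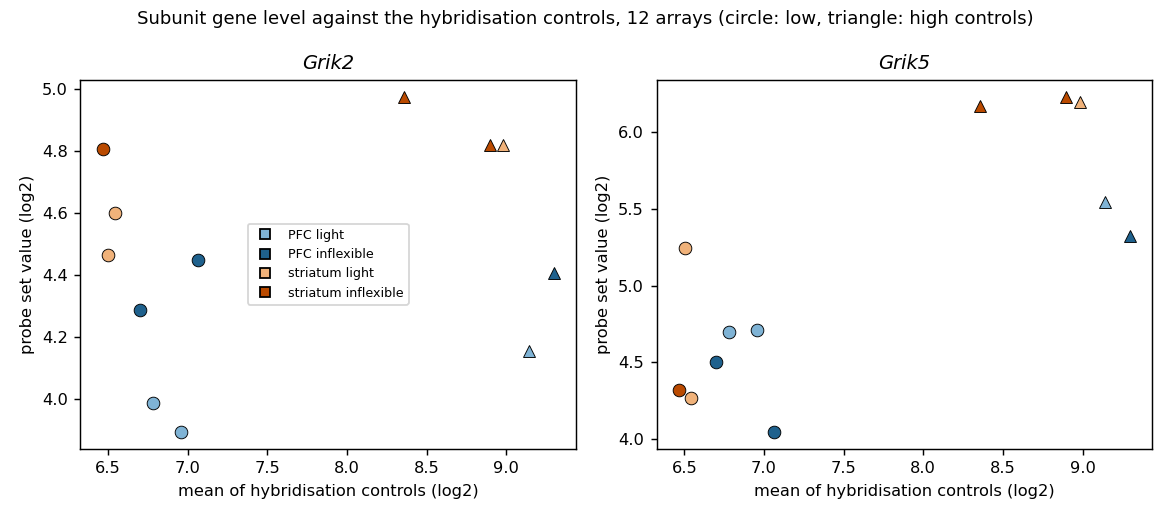
Level of Grik2 and Grik5 (log2, y axes) against the mean of the spiked hybridisation controls (log2, x axes) on the 12 arrays, coloured by group, with circles for low and triangles for high controls. The Grik5 values of the 5 triangles (5.32 to 6.23) lie above those of the 7 circles (4.04 to 5.25), and within each set the striatal values of Grik2 lie above the prefrontal ones.

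Grik1 and Grik4 were dim. The lead probe set of Grik1 (1427676_a_at) lay between 3.12 and 3.51 and that of Grik4 (1437681_at) between 3.23 and 3.68, with 0 of 12 arrays above a log2 value of 4. Grik1 had group means of 3.43 ± 0.12 in light and 3.30 ± 0.09 in inflexible prefrontal cortex and of 3.30 ± 0.17 in light and 3.20 ± 0.09 in inflexible striatum. For Grik4 they were 3.37 ± 0.13, 3.50 ± 0.13, 3.56 ± 0.10 and 3.58 ± 0.15 in the same order of groups. At this level near the array medians a change in transcript is compressed, and both genes overlapped between every pair of groups compared. The second probe sets of Grik1 (1439987_at, 2.92 to 3.10), Grik2 (1425790_a_at, 3.08 to 3.28) and Grik3 (1427709_at, 2.90 to 3.32) were dim as well, so that the values of Grik2 and Grik3 each rest on a single probe set. In the second set of Grik2 light striatum and light prefrontal cortex differed by 0.09 ± 0.05 (adjusted p = 0.654).

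The region comparison asked how striatum differed from prefrontal cortex, first in light drinkers. Grik2 was higher in striatum by 0.61 ± 0.10 (SE), or 1.53-fold, with a 95% interval of 0.40 to 0.83 that is not adjusted for the number of genes (limma, Benjamini-Hochberg adjusted p = 0.0065). It was the 1 subunit gene of 5 called, where 3.32% of all probe sets were, 1.47% as higher in striatum, and the 1 of 5 with an unadjusted p under 0.05 (11.4% of all probe sets). All 3 striatal arrays lay above all 3 prefrontal ones. Grik2 and Grik3 were the 2 of 5 whose arrays did not overlap, against 16.3% of all probe sets. The other 4 differences were -0.35 ± 0.18 for Grik3 (adjusted p = 0.555), 0.19 ± 0.10 for Grik4 (0.569), -0.13 ± 0.09 for Grik1 (0.790) and 0.25 ± 0.62 for Grik5 (0.975). The median of the 5 was 0.19, against 0.00 over all probe sets. With the control split as a block the Grik2 difference kept its size and its call (adjusted p = 8.7e-04), and the low-control arrays by themselves gave 0.59 ± 0.08 (adjusted p = 0.0157). On the high-control arrays, 1 in each of these groups, it was 0.66 ± 0.11 (adjusted p = 0.354). In a fit of the 6 light drinker arrays alone, high and low, the call was lost (adjusted p = 0.0691).

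In inflexible drinkers the same comparison called 0 of 5 subunit genes, where 0.773% of all probe sets were called, and 1 of 5 had an unadjusted p under 0.05 (7.4% of all probe sets). That gene was again Grik2, at 0.48 ± 0.10 or 1.40-fold (95% interval 0.27 to 0.70, adjusted p = 0.0666), with all striatal arrays above all prefrontal ones. It was the 1 of 5 without overlap, against 11.5% of all probe sets. With the control split as a block it was 0.43 ± 0.07 (adjusted p = 0.0200). It was 0.44 ± 0.09 on low-control arrays (adjusted p = 0.154) and 0.49 ± 0.10 on high-control arrays (adjusted p = 0.402). Without light striatal replicate 1, which enters this fit only through the shared spread, the adjusted p was 0.0327. Grik5 had the widest interval (0.95 ± 0.62, from -0.44 to 2.34, adjusted p = 0.904), and its difference fell to 0.52 ± 0.28 with the split as a block. Its difference was 0.05 on the low-control arrays, 1 of them inflexible striatal, and 0.88 on the high-control arrays, 1 of them inflexible prefrontal. With a group of 1 array on each side, whether the 2 sides differ cannot be told. Grik3 differed by 0.35 ± 0.18 (adjusted p = 0.787), Grik4 by 0.08 ± 0.10 and Grik1 by -0.10 ± 0.09 (adjusted p = 1.00 and 0.990). The median of the 5 was 0.35, against 0.00 over all probe sets.

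**Figure D3:**
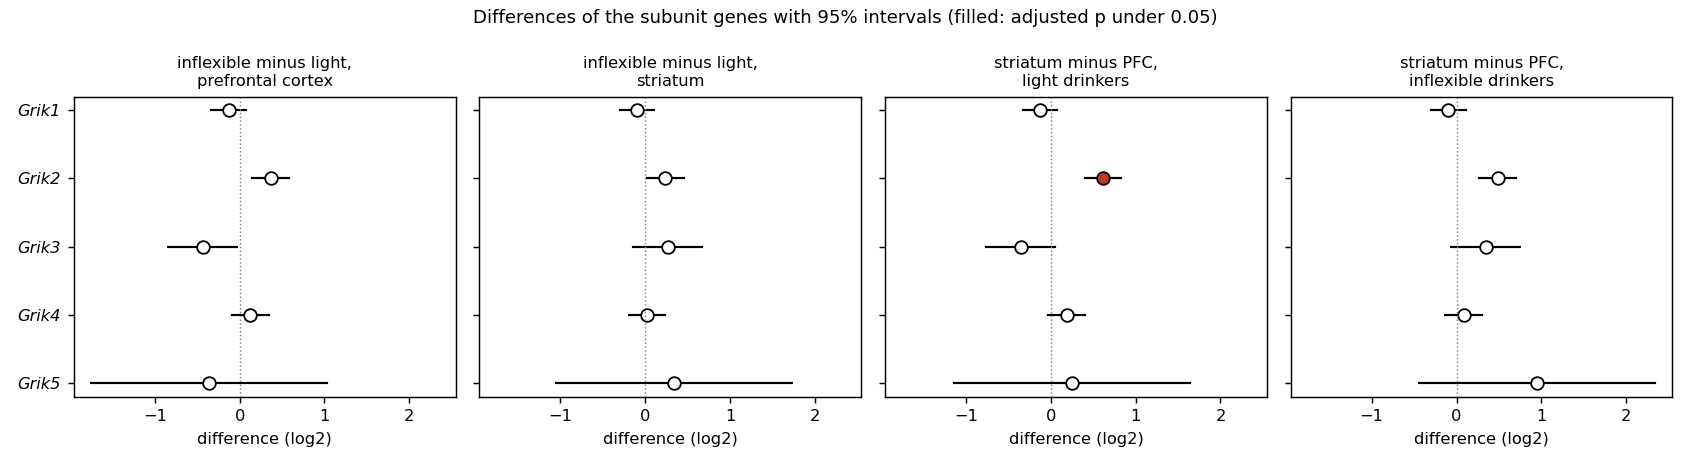
Differences of the 5 subunit genes (log2, x axes) in the 4 comparisons of groups, with 95% intervals from limma and filled symbols for an adjusted p under 0.05. Grik2 in light drinkers (0.61, striatum minus prefrontal cortex) is the filled symbol, and the intervals of Grik5 are the widest.

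The comparison of drinking classes within prefrontal cortex set mice whose ethanol preference survived quinine against mice that took more water than ethanol. No subunit gene was called, 0 of 5, where 0.826% of all probe sets were. An unadjusted p under 0.05 was reached by 2 of 5, Grik2 and Grik3, against 7.61% of all probe sets, and these were also the 2 of 5 without overlap between the groups (12.9% of all probe sets). Grik2 was 0.37 ± 0.10 higher in inflexible drinkers, or 1.29-fold (95% interval 0.15 to 0.58, adjusted p = 0.185), and Grik3 differed by -0.44 ± 0.18 (-0.84 to -0.03, adjusted p = 0.594). The median of the 5 differences was -0.13, against 0.00 over all probe sets.

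Whether Grik2 was called depended on how the control split was handled. As a block it left the difference at 0.37 with an SE of 0.07 and an adjusted p of 0.0328, a call. The difference was 0.43 ± 0.08 on low-control arrays (adjusted p = 0.0712) and 0.25 ± 0.11 on high-control arrays (adjusted p = 0.617). With array weights it was 0.44 ± 0.06 (adjusted p = 0.0033). With the replicate number as a block Grik2 stayed uncalled (adjusted p = 0.345), while the calls over all probe sets went from 372 to 206. The check on deviations did not settle that these numbers pair the prefrontal arrays, since inflexible replicate 1 was closest to light replicate 3. Grik1 (-0.13 ± 0.09, adjusted p = 0.936), Grik4 (0.13 ± 0.10, adjusted p = 0.958) and Grik5 (-0.36 ± 0.62, with an interval from -1.75 to 1.03, adjusted p = 1.00) overlapped between the classes. For Grik5 a difference of more than 2-fold either way would lie inside this interval.

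Of the marker lists given here, the medium spiny neuron list stood in the same order of groups as Grik2. The mean log2 level of the 10 measured medium spiny neuron markers, 9 of them above a log2 value of 4, was 4.28 to 4.40 on the light and 5.28 to 5.38 on the inflexible prefrontal arrays, and 6.38 to 6.51 on the light and 6.85 to 7.01 on the inflexible striatal arrays. The 8 myelin markers ran from 5.00 to 5.25 in light and 6.11 to 6.30 in inflexible prefrontal cortex, and from 6.58 to 6.87 in light and 6.57 to 6.77 in inflexible striatum. Myelin markers thus followed Grik2 between the prefrontal groups and overlapped between the striatal ones, where the arrays of Grik2 overlapped as well. The 9 hippocampal markers were at 3.51 to 3.56 and 4.04 to 4.16 in the prefrontal groups and at 4.40 to 4.43 and 4.13 to 4.24 in the striatal groups, so that they were lower, not higher, in inflexible than in light striatum. The part of these lists in the Grik2 differences was not tested. In whole tissue, fewer cells of a type and less RNA per cell cannot be told apart. The light prefrontal arrays enter both the prefrontal class comparison and the region comparison in light drinkers, so the Grik2 values of 0.37 and 0.61 share these arrays.

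In striatum inflexible and light drinkers did not differ in any called subunit gene, 0 of 5, where 0.0111% of all probe sets were called. Unadjusted, 1 of 5 had a p under 0.05 (3.53% of all probe sets): Grik2 was 0.24 ± 0.10 higher in inflexible drinkers, or 1.18-fold (95% interval 0.02 to 0.46, adjusted p = 1.00). Its groups overlapped, as did those of the other 4 genes (0 of 5 without overlap, against 7.84% of all probe sets). The remaining differences were 0.26 ± 0.18 for Grik3, 0.34 ± 0.62 for Grik5, -0.10 ± 0.09 for Grik1 and 0.02 ± 0.10 for Grik4 (each adjusted p = 1.00). The median of the 5 was 0.24, against 0.00 over all probe sets. Grik5 turned to -0.10 ± 0.28 with the control split as a block. Grik2 was 0.27 ± 0.09 on the low-control arrays, 1 of them inflexible, and 0.08 ± 0.10 on the high-control arrays.

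Whether the class difference itself depended on region was tested as the striatal minus the prefrontal class difference, called the class-by-region difference below. It was called for 0 of 5 subunit genes (0.313% of all probe sets), and 1 of 5, Grik3, had an unadjusted p under 0.05 (5.62% of all probe sets). For Grik3 it was 0.70 ± 0.26 (95% interval 0.13 to 1.27, adjusted p = 0.676), from -0.44 in prefrontal cortex to 0.26 in striatum. For Grik2 it was -0.13 ± 0.14 (-0.44 to 0.18, adjusted p = 0.999) and for Grik5 0.70 ± 0.88 (-1.27 to 2.67, adjusted p = 0.999). Grik1 (0.03 ± 0.13) and Grik4 (-0.10 ± 0.14) gave small values that were not called. The median of the 5 was 0.03, against 0.00 over all probe sets.

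Of 21 genes listed as partners of kainate receptors (auxiliary proteins, scaffolds, ligands, trafficking and degradation factors and RNA editing enzymes), 19 were measured. Neto1, the auxiliary protein that slows receptor gating, was the 1 partner called in the prefrontal class comparison. It read 5.81, 5.95 and 5.87 in light and 6.55, 6.76 and 6.55 in inflexible prefrontal cortex, and 6.61, 6.60 and 6.79 in light and 7.26, 6.86 and 6.82 in inflexible striatum. The groups did not overlap within either region, and the order of the 4 means was that of Grik2. Inflexible prefrontal and light striatal arrays overlapped, with means of 6.62 and 6.67, so the middle of this order is not resolved.

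In light drinkers Neto1 was 0.79 ± 0.11 higher in striatum than in prefrontal cortex (adjusted p = 0.0037), and a second probe set gave 0.75 ± 0.10 (adjusted p = 0.0031). The third gave 0.82 ± 0.27 and was not called (adjusted p = 0.204). In inflexible drinkers the difference was 0.36 ± 0.11 (adjusted p = 0.332). Within prefrontal cortex it was 0.74 ± 0.11 higher in inflexible drinkers (adjusted p = 0.0185), the 1 partner of 19 called there, where 0.826% of all probe sets were. The second Neto1 probe set gave 0.64 ± 0.10 there (adjusted p = 0.0238), and the third gave 0.37 ± 0.27 with overlapping arrays and was not called (adjusted p = 0.938). The call of the lead probe set was lost with the replicate block (adjusted p = 0.0693), and without inflexible prefrontal replicates 1, 2 or 3 (adjusted p = 0.0560, 0.0715 and 0.0627) or light prefrontal replicates 1 or 3 (0.0914 and 0.0796). The call held with the control split as a block (adjusted p = 0.0090). On the high-control arrays, 1 in each of these groups, the difference was 0.81, and no call could be kept, since that fit called no probe set at all. In striatum the class difference was 0.31 ± 0.11 (adjusted p = 1.00), and the class-by-region difference was not called (-0.43 ± 0.16, adjusted p = 0.703). The Neto1 values of 0.79 and 0.74 share the light prefrontal arrays. The medium spiny neuron markers given beside Grik2 stand in the same order as Neto1, and their part was not tested. Neto2, the related auxiliary protein, differed by 0.17 ± 0.12 in prefrontal cortex and 0.26 ± 0.12 between regions in light drinkers, neither called.

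Over the whole partner list the region comparison in light drinkers called 2 of 19 higher in striatum (Neto1 and C1ql2) and 2 of 19 lower (C1ql3 and Snap25), with a median of -0.02. Over all probe sets 3.32% were called, 1.47% as higher. C1ql2 and C1ql3 are secreted C1q-like proteins that bind kainate receptors at mossy fibre synapses. C1ql3 was 7.88, 8.29 and 7.88 in light prefrontal cortex against 7.02, 7.13 and 6.97 in light striatum, a difference of -0.97 ± 0.17 (adjusted p = 0.0133), which was not called without light striatal replicate 3 (adjusted p = 0.0560). In inflexible drinkers it was -1.11 ± 0.17 (adjusted p = 0.0206), the 1 partner of 19 called in that comparison (0.773% of all probe sets), and this call was lost without any 1 of 5 arrays: inflexible prefrontal replicates 1, 2 and 3 (adjusted p = 0.0557, 0.0803 and 0.0774) and inflexible striatal replicates 1 and 2 (0.0730 and 0.0654). It was lost too with only the groups compared (adjusted p = 0.171). The prefrontal and striatal arrays did not overlap in either class. Of its other 2 probe sets, 1 was called lower in both classes (-0.72 and -0.79, adjusted p = 0.0067 and 0.0141) and 1 in neither (-0.68 and -0.76, adjusted p = 0.149 and 0.213).

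C1ql2, also one of the hippocampal markers, was dim, at 2.96, 3.08 and 3.03 in light prefrontal cortex and 3.62, 3.69 and 3.63 in light striatum (0.63 ± 0.08, adjusted p = 0.0016). In prefrontal cortex it was 0.39 ± 0.08 higher in inflexible drinkers (adjusted p = 0.0638), and in striatum it differed by -0.26 ± 0.08 (adjusted p = 0.992). The class-by-region difference was -0.65 ± 0.11 (adjusted p = 0.0506). The prefrontal and class-by-region values were called with the control split as a block (adjusted p = 0.0228 and 0.0246). Quantile normalisation (0.0300 and 0.0239), averaged probe sets (0.0475 and 0.0381) and array weights (3.7e-04 and 0.0020) called both as well. With the replicate block neither was called (0.172 and 0.162). Leaving out single arrays gave 0.0122 (without inflexible prefrontal replicate 2) to 0.247 and 0.0108 (without the same array) to 0.158. The hippocampal list as a whole, C1ql2 included, had 5 of 9 members called higher in inflexible prefrontal cortex (0.826% of all probe sets were called). It was chosen with earlier results of these data known, and its part here was not tested. Snap25, the SNARE protein of transmitter release, was lower in light striatum by 0.66 (SE 0.11, adjusted p = 0.0093), a value of -0.38 when its probe sets were averaged (adjusted p = 0.192), and uncalled with only the groups compared (adjusted p = 0.0773). Its second probe set gave -0.09 ± 0.32 (adjusted p = 0.984). In inflexible drinkers it differed by -0.36 ± 0.11 (adjusted p = 0.308).

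The remaining partners were not called in any comparison. In prefrontal cortex the next smallest p-values belonged to the scaffold kinase Cask (-0.30 ± 0.10, adjusted p = 0.354) and the actin-binding ubiquitin ligase adaptor Klhl17 (-0.19 ± 0.11, adjusted p = 0.859), with a median of -0.09 over the 19. Between classes in striatum 0 of 19 were called (0.0111% of all probe sets) and 3 had an unadjusted p under 0.05 (3.53% of all probe sets), Dlg1 among them, a scaffold gene (0.28 ± 0.10, adjusted p = 1.00). The class-by-region difference was called for 0 of 19 (0.313% of all probe sets), with 3 under 0.05 unadjusted (5.62% of all probe sets). There Dlg1 gave 0.39 ± 0.14 (adjusted p = 0.667) and Cask 0.26 ± 0.14 (adjusted p = 0.999). C1ql3 differed by -0.28 ± 0.17 between classes in striatum (adjusted p = 1.00), and the postsynaptic scaffold gene Dlg4 by 0.44 ± 0.26 between regions in inflexible drinkers (adjusted p = 0.865). Medians over the 19 were 0.04 between striatal classes, 0.10 for the class-by-region difference and -0.02 between regions in inflexible drinkers, against 0.00 over all probe sets in each.

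**Figure D4:**
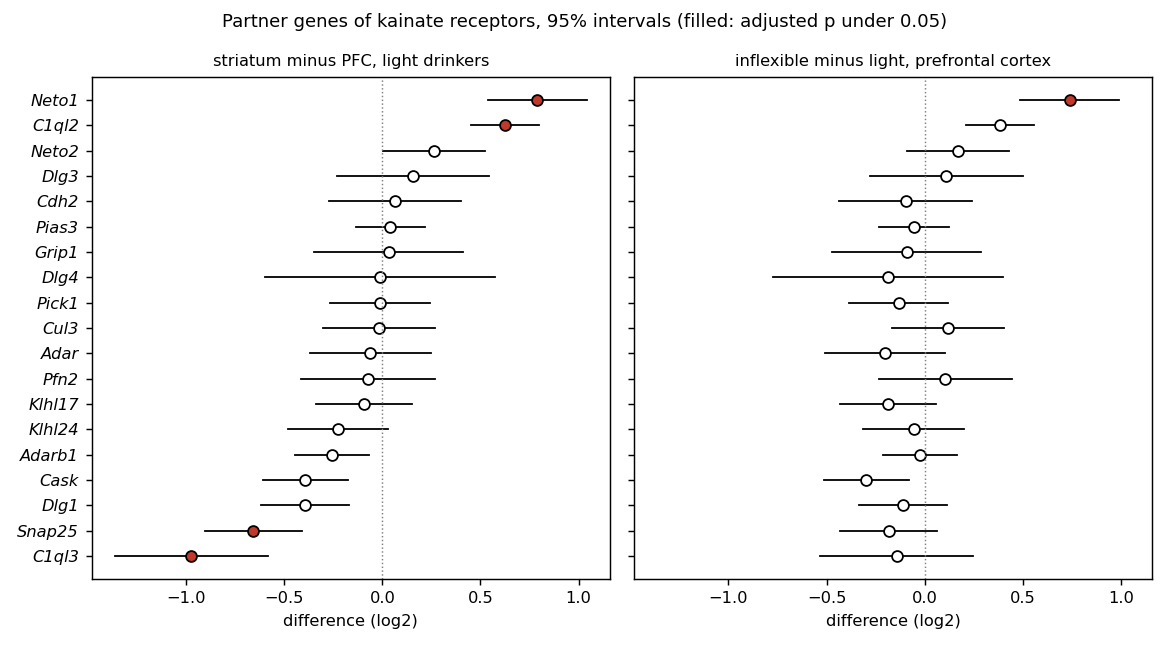
Differences (log2, x axes) of the 19 measured partner genes (y axis, ordered by the left panel) with 95% intervals, striatum minus prefrontal cortex in light drinkers on the left and inflexible minus light drinkers in prefrontal cortex on the right. Neto1 is filled, with an adjusted p under 0.05, in both panels (0.79 and 0.74), which share the light prefrontal arrays.

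Genes whose profile was most like that of a subunit gene were sought among 6467 named genes with a mean above a log2 value of 4, by Pearson correlation over the 12 arrays. The arrays share their groups and the control split, so these values are a description. Closest to Grik2 were Lxn, a carboxypeptidase inhibitor (r = 0.97), Ap1s2, a clathrin adaptor subunit (0.96), and Adamts3, a secreted metalloprotease (0.96). Grik3 was nearest to Pygo2, a Wnt pathway cofactor (0.92), Lrrtm3, a synaptic adhesion protein (0.91), and Glcci1 (0.89). For Grik5 the nearest were Fkbp8, an FK506-binding protein (0.99), Clptm1 (0.99) and Pfkl, a phosphofructokinase (0.98). Of these, Clptm1 (5.60 to 6.46 on high-control against 4.69 to 5.50 on low-control arrays) and Pfkl (5.46 to 6.61 against 3.96 to 5.05) were likewise divided by the control split without overlap, and Fkbp8 (5.67 to 6.51 against 4.89 to 5.76) nearly so.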

How the data were processed

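Biotin-labelled total RNA from prefrontal cortex and striatum was measured on 12 one-colour arrays, 3 for each of 4 groups. The authors deposited a table of summarised log2 probe set values, made with RMA and affy per the submitters' processing notes, which give no version numbers. The base of the logarithm was read from the values, and such a summary compresses low values. Of 45101 probe sets 64 controls were left out. The annotation gave 34945 probe sets a single symbol, and the 5 member gene IDs matched RefSeq. A model of 4 group means was fitted to all probe sets with limma 3.58.1 in R 4.3.3 (lmFit, eBayes, 8 residual degrees of freedom), two-sided, with Benjamini-Hochberg adjustment over 45037 probe sets and a call at an adjusted p under 0.05. Tables and figures were made with Python 3.11.15, pandas 2.3.3 and matplotlib 3.10.9. The fit was tested on simulated data.

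The subunit genes were all named, and of the partner list the called genes plus, per comparison, the 4 with the smallest p. For likeness, the 3 best correlated genes were named. The members and lists were chosen with earlier results of these data known. Alternatives were quantile normalisation, a filter on low values, averaging the probe sets of each gene, replicate and control-split blocks, fits within the split (arrays divided at the widest gap in their level of 18 hybridisation control probe sets), array weights, fewer groups and leaving out each array. Same-numbered arrays deviated together in prefrontal cortex (correlations 0.74, 0.85 and 0.62), and the replicate block rests on this. Inflexible replicate 1 was closest to light replicate 3, however, and replicate 2 is the high-control array of both groups, so the numbers need not pair arrays. Each other comparison had a negative correlation among its same-numbered arrays, though replicate 3 reached 0.60 between regions in light drinkers.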

Additional observations from a re-analysis of the deposited data

How the results depend on the processing

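Over 25 subunit differences and 21 alternative settings, some of which apply to 1 comparison only, no called value reversed. The call count of subunit genes in prefrontal cortex went from 0 to 1 (Grik2) with the control split as a block and with array weights, and so did the count between regions in inflexible drinkers, which ranged from 0 to 1 when single arrays were left out. Between regions in light drinkers it went from 1 to 0 on the high-control arrays and with only the groups compared, and to 2 with array weights (Grik3, -0.45, adjusted p = 0.0484). Uncalled differences changed sign as follows. On the low-control arrays Grik1 gave 0.016 between regions in inflexible drinkers and 0.082 between striatal classes. There Grik5 gave -0.44 between striatal classes and -0.0037 for the class-by-region difference. On the high-control arrays Grik1 gave -0.16 for the class-by-region difference and Grik3 -0.022 between striatal classes. Grik5 gave -0.10 between striatal classes with the split as a block, and Grik4 -0.025 there with array weights. Leaving out single arrays moved Grik1 from -0.045 to 0.123 for the class-by-region difference. It moved Grik4 from -0.038 to 0.106 and Grik5 from -0.15 to 0.97 between striatal classes, and Grik5 from -0.23 to 0.74 between regions in light drinkers. The causes were not tested.

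The count of all called probe sets moved by over 1.5 times. With the replicate block it was 206 in prefrontal cortex (372 without) and 51 for the class-by-region difference (141), and that block changed no call of a subunit gene. With the split as a block the counts were 1119, 34 in striatum (5), 443, 3152 between regions in light drinkers (1496) and 972 in inflexible drinkers (348). Array weights gave 2955 in prefrontal cortex, 800 for the class-by-region difference, and 4685 and 886 between regions in light and inflexible drinkers. The low-control arrays gave 1243 in prefrontal cortex, 0 in striatum and 3775 between regions in light drinkers, and the high-control arrays, with 1 residual degree of freedom, gave 0 in all 5 comparisons. The filter on low values, with fewer probe sets tested, gave 215 in prefrontal cortex and 2 in striatum, and fits of the groups compared alone gave 198 and 1, and 61 between regions in inflexible drinkers. Leaving out single arrays gave 157 to 394 in prefrontal cortex, 2 to 9 in striatum, 62 to 161, 942 to 1607 and 158 to 404 in the others. The partner and other glutamate receptor genes were carried through the same settings after the data were seen. A fit of only the groups compared adds nothing for the class-by-region difference, which uses all 4.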

Other observations

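The other glutamate receptor families were counted for comparison. Of 13 AMPA, NMDA and delta receptor subunit genes listed 11 were measured, and 6 of these had a mean above a log2 value of 4. For the metabotropic receptors it was 8 listed, 6 measured and 4 above that value. The dimmer genes lie where values are compressed, which limits these counts. Of 11 measured AMPA, NMDA and delta receptor subunit genes, 0 were called between drinking classes by limma in prefrontal cortex (4 with an unadjusted p under 0.05) and 0 in striatum (1 unadjusted), and of 6 metabotropic receptor genes 0 in either region (2 and 0 unadjusted). Over all probe sets 0.826% and 0.0111% were called in these comparisons, and 7.61% and 3.53% had an unadjusted p under 0.05. Between regions in light drinkers 3 of the 11 were called, where 3.32% of all probe sets were. The AMPA receptor gene Gria1 was higher in striatum by 1.45 ± 0.24 (from 6.37 to 7.82, adjusted p = 0.0094), while Gria3 (-0.52 ± 0.12, adjusted p = 0.0440) and Gria4 (-0.76 ± 0.08, adjusted p = 8.5e-04) were lower. Of the 6 metabotropic genes Grm2 (-0.78 ± 0.12, adjusted p = 0.0050) and Grm3 (-0.69 ± 0.12, adjusted p = 0.0091) were lower in striatum. The call of Gria3 was lost with quantile normalisation (adjusted p = 0.0685), with the replicate block (0.0684) and without 10 of the 12 single arrays (0.0509 to 0.155). With only the groups compared, Gria1 (adjusted p = 0.0677) and Grm3 (0.0601) were not called. On the high-control arrays, 1 in each of these groups, no call could be kept, since that fit called no probe set at all. In inflexible drinkers 0 of these 17 genes were called between regions, with 3 of 11 and 1 of 6 under 0.05 unadjusted, against 0.773% called and 7.4% under 0.05 over all probe sets. These 5 genes were named after their values were seen.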
